A study of Mus musculus with 4 samples.

Results

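The collagen gene family was examined in DNase-seq maps of 3T3-L1 cells. Members were the protein-coding genes of GENCODE M21 whose symbol is Col, a number, the letter a and a number, which gave 44 of 21829 genes. The rule used gene names alone and no measured value, though it was set with earlier results of these data known. DNase-seq cuts accessible DNA with the nuclease DNase I, so that clusters of cuts mark regulatory sites in open chromatin. 3T3-L1 is an immortalized mouse embryo fibroblast line that can be turned into adipocytes, and the labels give its strain as C57BL/6J and name no treatment. The 4 libraries came from 2 biosamples with 2 libraries each, and both biosamples carry the same description. For each biosample the assembly mm10 carried 1 peak list, made of windows no wider than 150 bp, and 1 hotspot list, made of broader accessible stretches.

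Collagens are secreted proteins whose chains wind around each other into a helix. Fibrillar collagens bear tension in skin, bone and tendon, network collagens form the sheet beneath epithelia and around vessels and adipocytes, and the remaining classes coat fibrils, form beaded microfilaments, anchor the epidermis or span the plasma membrane. Fibroblasts are the main producers of the fibrillar type I, III and V chains and of type VI chains, whereas type II, IX, X and XI chains are typical of cartilage. Distant enhancers and elements in the introns are known to act together with the promoters of several of these genes.

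The lists of biosample 1 were longer, with 298793 peaks against 97430 and 247031 hotspots against 88636. The peak score, which no source used here defines, had a median of 65 in biosample 1 and 33 in biosample 2, so scores were not compared between lists. Each score is therefore given with its percentile, the share of its own list that it stood above, with ties counted as midway. There was 1 list for each biosample, so no spread between replicates and no test could be had, and the shares below have 95% Wilson intervals that cover counting error only. Sequencing depth was unknown, and whether a site was open in fewer cells or less open in each cell cannot be told apart. Markers of cell types were also looked up. Their lists were chosen with earlier results of these data known, so they are no independent check of the label. In both lists, 9 of 9 fibroblast markers and 3 of 4 preadipocyte markers carried a peak at the promoter, where 51.8% of all genes did. The same held for 1 of 6 markers of mature adipocytes, 2 of 4 of endothelium (Cdh5 and Pecam1), 1 of 5 of chondrocytes (Sox9), 1 of 4 of osteoblasts (Runx2) and 0 of 4 each of epithelium, blood and skeletal muscle.

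A promoter peak, meaning one that reached to 1000 bp or less from the start of a protein-coding transcript, was present in both lists for 20 of the 44 collagen genes (45.5%, interval 31.7% to 59.9%). Over all protein-coding genes this share was 51.8%, which lies inside that interval. For another 6 members (13.6%, against 10.8% of all genes) it was present only in biosample 1, and 18 (40.9%, against 37.3%) had none in either list. No member was called only in biosample 2. The family as a whole thus stood near the background. Among the fibroblast chains named above, both of type I, Col3a1, Col5a1, Col5a2, Col6a1, Col6a2 and Col6a3 were called in both lists, whereas Col5a3 was called only in biosample 1 and Col6a4, Col6a5 and Col6a6 in neither. Among the cartilage chains, Col2a1, Col10a1 and all 3 of type IX were called in neither list, whereas Col11a2 was called in both and Col11a1 only in biosample 1. This grouping was made after the values were known, and it was not tested.

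Of the 11 fibrillar genes, 7 were called in both lists, 2 only in biosample 1 and 2 in neither. Col1a2, which encodes the second chain of type I collagen, had the highest mean percentile of the family. Its strongest promoter peak scored 148 in biosample 1 (percentile 99.7) and 87 in biosample 2 (percentile 97.1). Col5a2, a chain of the type V collagen that regulates fibril diameter, scored 144 and 79 (percentiles 98.6 and 94.7). Col1a1, the major chain of type I collagen, scored 137 and 81 (percentiles 96.0 and 95.4), and its percentiles in the 2 lists lay closer together than those of any other called member. Col3a1, the sole chain of type III collagen, scored 138 and 68 (percentiles 96.4 and 89.5). These 4 genes stood at or above percentile 89.5 in both lists. Col5a1 (139 and 63), Col27a1 (111 and 46) and Col11a2 (106 and 19) were also called in both lists. The strongest peaks of Col5a1 in the 2 lists did not meet, though each met a weaker promoter peak of the other list. Col11a2, a cartilage chain, was the lowest of the called members in biosample 2, at percentile 18.6. Col5a3 (score 106, percentile 80.6) and Col11a1 (score 59, percentile 43.3) were called only in biosample 1. Col2a1, the main fibrillar chain of cartilage, and Col24a1 had none.

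In biosample 1 the strongest promoter peaks of the 4 leading genes lay downstream of the start site annotated by GENCODE. They lay at chr6:4505516-4505665, 23 bp from the start site, for Col1a2 and at chr1:45503036-45503185 (97 bp) for Col5a2. For Col3a1 the peak lay at chr1:45311576-45311725 (38 bp) and for Col1a1 at chr11:94937056-94937205 (832 bp). Distances to start sites of RefSeq were not computed and can differ. For the first 3 named the peak lay wholly inside untranslated sequence annotated by GENCODE and met an exon of the gene. For Col1a1 it lay in an intron. In each of the 4 genes the strongest peak of biosample 2 met that of biosample 1. At Col1a1 a further peak at chr11:94936156-94936305 covered the start site itself in both lists, with scores of 134 and 65. The sequences below are shown because they are the promoter DNA of the genes with the highest promoter percentiles of the family. They are the 120 bases before the start site nearest the peak, the intron peak of Col1a1 and a stretch of 30 bases inside the Col1a2 peak, on the strand of the gene, from GRCm38.p6, which has the chromosome sequences of mm10. Capitals mark matches on either strand to CCAAT (the CCAAT box), TATAAA (the TATA box) and GGGCGG (the GC box).
Col1a2 upstream, chr6:4505373-4505492, plus strand: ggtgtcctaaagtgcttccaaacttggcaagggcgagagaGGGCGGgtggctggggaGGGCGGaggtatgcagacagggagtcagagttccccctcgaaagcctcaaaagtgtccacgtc
Col1a2 CCAAT site, chr6:4505606-4505635, plus strand: cctagccctcccATTGGtggagacgttttt
Col5a2 upstream, chr1:45503283-45503402, minus strand: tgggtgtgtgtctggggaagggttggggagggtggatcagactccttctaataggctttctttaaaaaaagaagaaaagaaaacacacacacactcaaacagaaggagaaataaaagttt
Col1a1 upstream, chr11:94936104-94936223, plus strand: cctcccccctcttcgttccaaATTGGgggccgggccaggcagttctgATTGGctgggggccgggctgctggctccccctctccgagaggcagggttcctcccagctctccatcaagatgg
Col1a1 intron peak, chr11:94937056-94937205, plus strand: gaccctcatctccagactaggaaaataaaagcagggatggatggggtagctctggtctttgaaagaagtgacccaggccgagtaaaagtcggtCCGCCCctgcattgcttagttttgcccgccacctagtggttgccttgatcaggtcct
Col3a1 upstream, chr1:45311418-45311537, plus strand: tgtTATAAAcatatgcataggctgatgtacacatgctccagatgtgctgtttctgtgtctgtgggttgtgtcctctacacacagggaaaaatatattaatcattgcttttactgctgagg
The Col1a1 stretch held 2 CCAAT boxes, both in the inverted form ATTGG, and Col1a2 held 1 inverted CCAAT box inside its peak and 2 GC boxes upstream. Col3a1 held 1 TATAAA match, and the Col5a2 stretch held none of these motifs. In the promoter windows of 300 bp given by RefSeq for this build, 35 members were matched by symbol with 38 windows. CCAAT was present in 13 of the 38 (34.2%, interval 21.2% to 50.1%) against 37.8% of 20143 windows of protein-coding genes, TATAAA in 5 (13.2%) against 12.1%, GGGCGG in 23 (60.5%, 44.7% to 74.4%) against 47.7%, and the AP-1 motif TGACTCA in 1 (2.63%) against 4.65%. All 4 background shares lay inside the intervals of the members. A match is a match of letters and not a measured site. Col1a1, Col2a1, Col4a3, Col5a2, Col9a3, Col12a1, Col14a1, Col22a1 and Col26a1 had no entry in the RefSeq table.

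The leading genes were poor in CpG at their most upstream start site. The ratio of observed to expected CpG in the 1000 bp around that site was 0.179 at Col3a1, 0.198 at Col1a2, 0.301 at Col1a1 and 0.330 at Col5a2. All lay well under 0.6, the value above which a promoter was counted as CpG-rich. At Col1a2 the start site nearest the leading peak was another one, and the window reached neither. The window also stopped short of the leading peak of Col1a1, 832 bp from its start site. Col8a2 and Col18a1, though called in both lists, had no peak within 1000 bp of the site used for this ratio. Of the 44 members, 13 (29.5%) were CpG-rich, against 46.6% of all protein-coding genes. Promoters poor in CpG were called in both lists in 13 of 31 members (41.9%, interval 26.4% to 59.2%) against 27.1% of all genes of that kind, a share inside the interval. Promoters rich in CpG were called in 7 of 13 members (53.8%, 29.1% to 76.8%) against 80.2%, which lies above the interval. Among the called genes, the median mean percentile of the CpG-poor promoters was 86.8 for members and 86.2 for all genes, and that of the CpG-rich promoters was 71.1 and 92.0. The 5 CpG-rich members without a promoter peak in either list were Col13a1, Col19a1, Col25a1, Col26a1 and Col2a1. The plot of CpG ratios shows that called and uncalled members covered much of the same range.

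**Figure D1:**
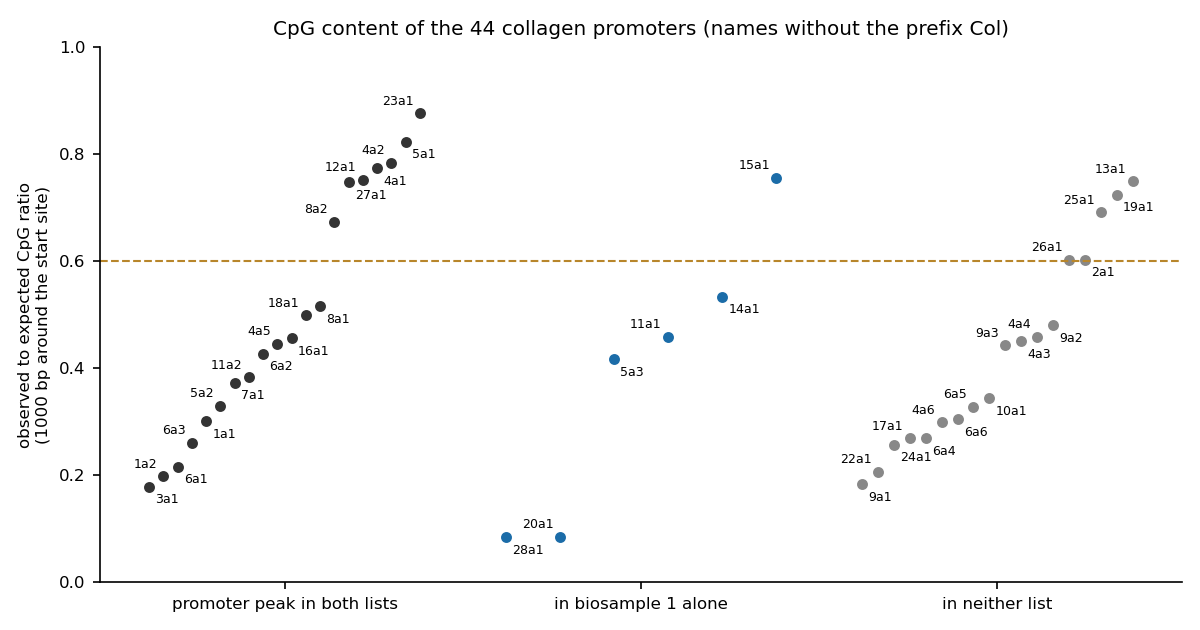
Observed to expected CpG ratio around the most upstream start site of each collagen gene (vertical axis, no unit), by promoter call. There is 1 point for each of the 44 genes, and the dashed line is at 0.6. Col3a1 and Col1a2 are the lowest of the 20 genes called in both lists, at 0.179 and 0.198, and 5 genes without a promoter peak lie above the line.

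Of the 6 genes of the basement membrane network, 3 were called in both lists and 3 in neither. These genes lie in head-to-head pairs, and each of the 3 pairs had its own pattern. Col4a1 and Col4a2, whose chains form the ubiquitous type IV network, are transcribed away from each other from start sites 21 bp apart, and the ends of their transcripts overlap. Both genes had the same promoter peaks near these start sites, 4 in biosample 1 and 2 in biosample 2. Their scores of 122 and 30 (percentiles 89.2 and 44.2) are therefore 1 measurement and not 2, though the pair counts as 2 called genes. The score of 122 belonged to chr8:11313396-11313545, and that of 30 to both biosample 2 peaks, which it did not meet. The biosample 2 peaks met other biosample 1 peaks there, with scores of 106 and 121. Their promoter hotspot of 4774 bp, chr8:11309609-11314382, was the widest at any collagen promoter in biosample 1. In biosample 2 the widest hotspot there was 143 bp. The site printed here was chosen for its CCAAT box and also holds a GC box, both in capitals. It lay close to both start sites and inside the 4774 bp hotspot of biosample 1, but in no promoter peak of either list.
Col4a1-Col4a2 shared promoter site, chr8:11312754-11312783, strand of Col4a2: gcgCCGCCCgaggagctccCCAATttgttg
Col4a3 and Col4a4, which encode chains of the kidney and other specialised membranes, start 127 bp apart and had no promoter peak or hotspot in either list. Col4a5 and Col4a6 on the X chromosome start 1309 bp apart. Col4a5 was called in both lists, with scores of 124 and 59 (percentiles 90.1 and 83.4), and Col4a6 had none. A hotspot of 2864 bp in biosample 1 and 739 bp in biosample 2 reached within 1000 bp of both, so Col4a6 counted among the genes with a promoter hotspot but not among those with a promoter peak.

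The beaded filament class separated along its gene clusters. Col6a2 (scores 133 and 66, percentiles 94.2 and 88.3), Col6a1 (130 and 47, percentiles 92.9 and 71.5) and Col6a3 (132 and 44, percentiles 93.8 and 67.7), the chains of classical type VI collagen, were called in both lists. Col6a6, Col6a5 and Col6a4, which lie in a row on chromosome 9 with gaps of 27917 and 28810 bp, had none in either list. Col28a1, a related chain, was called only in biosample 1 (score 42, percentile 17.8). The short chain genes Col8a2 (139 and 60, percentiles 96.8 and 84.2) and Col8a1 (123 and 59, percentiles 89.6 and 83.4), whose products form hexagonal lattices, were called in both lists. Col10a1, the marker of hypertrophic cartilage, had no promoter peak.

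In the FACIT class, whose members bind to the surface of fibrils, 2 of 9 genes were called in both lists. These were Col16a1 (143 and 57, percentiles 98.3 and 81.8) and Col12a1 (108 and 39, percentiles 81.7 and 60.5). Col14a1 (score 50) and Col20a1 (score 50) were called only in biosample 1, both at percentile 30.6, and Col9a1, Col9a2, Col9a3, Col19a1 and Col22a1 had none. Of the 4 transmembrane genes, Col23a1 was called in both lists (121 and 31, percentiles 88.7 and 46.3), and Col13a1, Col17a1 and Col25a1 in neither. The multiplexin Col18a1, the source of endostatin, was called in both lists (132 and 49, percentiles 93.8 and 73.9), and its relative Col15a1 in biosample 1 alone (score 49, percentile 29.1). Col7a1, which forms the anchoring fibrils of skin, was called in both lists (100 and 28, percentiles 77.0 and 39.9). Col26a1, a member outside these classes, had no promoter peak. In biosample 1 the members called there alone had percentiles of 17.8 to 80.6, and those called in both lists had 77.0 to 99.7.

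**Figure D2:**
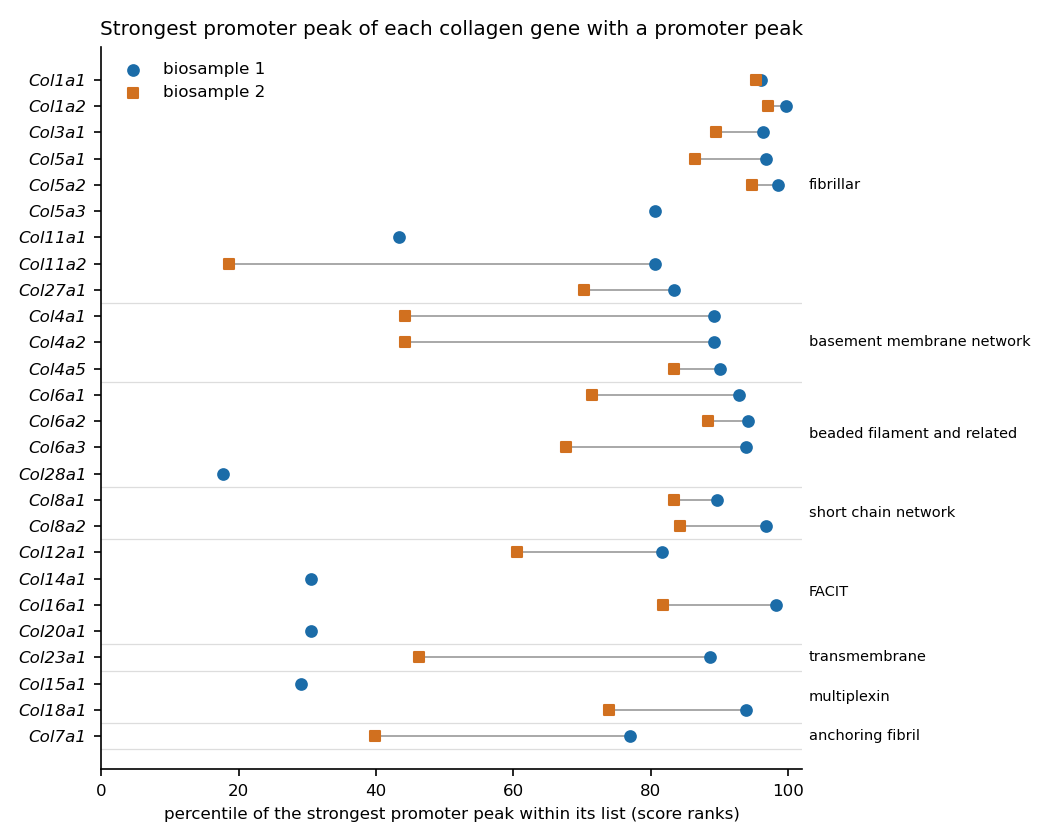
Percentile of the strongest promoter peak within its own list (horizontal axis) for the 26 collagen genes with a promoter peak, grouped by class, with circles for biosample 1 and squares for biosample 2. Col1a1, Col1a2 and Col5a2 lie at the right in both lists, and the 6 genes with a circle alone had no peak in biosample 2.

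Over the 20 genes called in both lists, the median percentile was 93.3 in biosample 1, against 95.5 for all genes so called, and 77.8 in biosample 2, against 86.4. In several genes the call rested on 1 of several start sites. Col18a1 has 5 start sites and only the one at position 77089428 of chromosome 10 had a peak in both lists. The sites at 77113705 and 77113946 had a peak of score 70 in biosample 1 alone, and the remaining ones had none. Col8a2 was called at its downstream start site, position 126300530 of chromosome 4, and had no peak at the upstream one. Col5a1 had 4 peaks in each list at its upstream start site, and 1 peak of score 44 in biosample 1 alone at the downstream one. With the start sites of all transcripts, coding or not, Col2a1, Col13a1 and Col26a1 were also called in both lists, which made 23. The share of all genes at this setting was not computed.

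A promoter hotspot was present in both lists for 22 members (50%, interval 35.8% to 64.2%), against 52.1% of all genes. In biosample 1 the widest were those of Col4a1 and Col4a2 (4774 bp), Col5a1 (4369 bp), Col1a2 (4099 bp), Col1a1 (2990 bp) and Col4a5 with Col4a6 (2864 bp). In biosample 2 they were those of Col5a1 (1295 bp), Col8a2 (1218 bp), Col1a1 (749 bp), Col4a5 with Col4a6 (739 bp) and Col1a2 (687 bp). Over the members called in both lists the median of the widest promoter hotspot was 1830 bp in biosample 1 and 356 bp in biosample 2, against 1790 and 602 bp for all genes so called.

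Distal peaks, more than 1000 bp from any protein-coding start site, were then counted in each gene body and 50 kb to either side. A biosample 1 peak that met a biosample 2 peak by at least 1 bp was counted as shared. All 44 members had at least 1 shared distal peak, against 86.7% of all genes. Collagen genes are long, with a median of 114 kb against 17.4 kb, so density is the fairer measure. The members had a median of 5.26 shared distal peaks per 100 kb, with quartiles of 2.95 and 7.07, and all genes a median of 3.63, with quartiles of 1.74 and 5.71. The members called at the promoter in both lists had a median of 6.94 (range 1.91 to 15.4) against 4.34 for all genes so called, and the members with no promoter peak had a median of 3.35 (range 0.528 to 7.75) against 1.91. Both ranges overlap widely. By class, the median was 7.11 in the fibrillar genes and 2.42 in the basement membrane genes, where Col4a2 reached 12.7 and Col4a4 had 1.68.

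Col4a2 had the most shared distal peaks, 30, followed by Col4a1 with 24, Col1a2 with 21, Col24a1 with 20, Col18a1 with 19, and Col5a1 and Col23a1 with 18 each. The windows of Col4a1 and Col4a2 overlap, and they held 44 such peaks when each was counted once. Per length, Col1a2 led with 15.4 per 100 kb, at the 99.4th percentile of all genes, followed by Col4a2 with 12.7 (98.7) and Col4a1 with 11.2 (97.5). Col24a1, a long gene with no promoter peak in either list, had 17 of its 20 shared distal peaks in its own introns, and its density of 5.56 stood at the 73.3rd percentile. Col2a1 also had no promoter peak at its coding start sites, yet had 10 shared distal peaks, or 7.75 per 100 kb, at the 89.3rd percentile. The fewest per length were found at Col25a1 (0.528), Col11a1 (0.689) and Col19a1 (0.705).

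**Figure D3:**
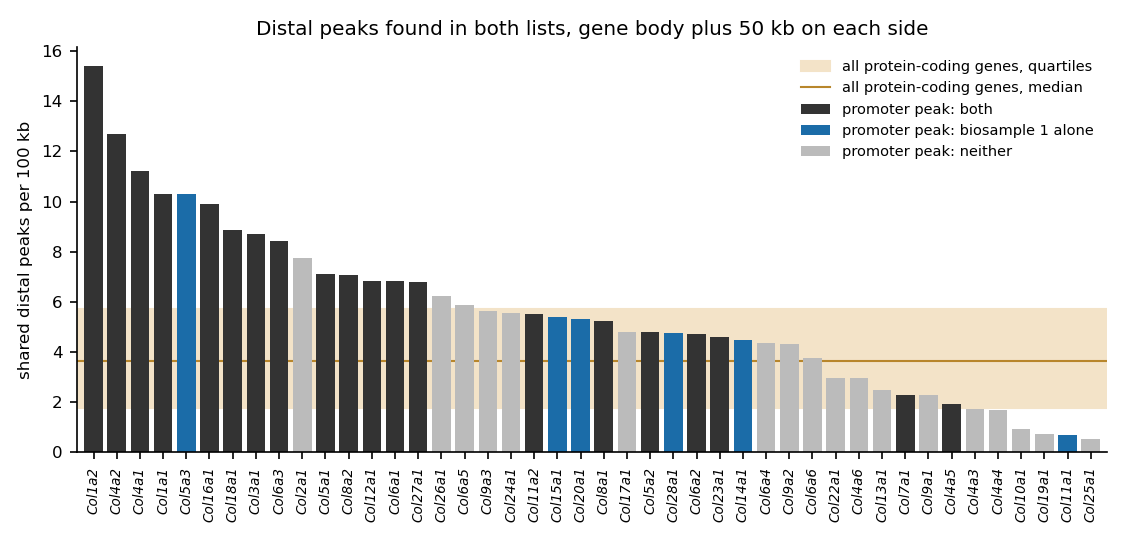
Shared distal peaks per 100 kb (vertical axis) of the 44 collagen genes in falling order, coloured by promoter call, with the median and the quartiles of all protein-coding genes as a line and a band. Col1a2, Col4a2 and Col4a1 lead, followed by Col5a3 and Col1a1 at 10.3 each, and the genes with no promoter peak in either list reach up to 7.75, at Col2a1.

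Pairs of neighbouring collagen genes were also examined. Col3a1 and Col5a2 end 24614 bp from each other, and their joined windows held 21 shared distal peaks, of which 2 lay in the gap, where biosample 1 had 13 peaks. Col6a2 and Col6a1 lie 85161 bp apart, and 7 of the 35 biosample 1 distal peaks between them were shared. Col9a1 and Col19a1, both without a promoter peak, lie 9205 bp apart, with no distal peak of biosample 1 between them.

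Counted once, the windows of the members held 1561 distal peaks in biosample 1 and 463 in biosample 2. Of those of biosample 2, 453 met a biosample 1 peak (97.8%, interval 96.1% to 98.8%), against 94.7% of all distal peaks of biosample 2. Of those of biosample 1, 452 met a biosample 2 peak (29.0%, 26.8% to 31.3%), against 27.9%. The 452 shared peaks lay in introns of members in 249 cases, in exons in 7 and outside the members' bodies in 196, and a member had the nearest coding start site for 306. The others lie nearer to another gene, and which gene a distal peak acts on was not measured. In both lists 48 of the 452 (10.6%, 8.1% to 13.8%) belonged to the top 10% by score, against 7.42% of all shared distal peaks, which lies below the interval. The interval takes each peak as separate, though some of the 48 lay close together, such as chr6:4488436-4488585 and chr6:4490016-4490165 at Col1a2. The difference was not tested.

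By the mean of its percentiles in both lists, the strongest shared distal peak lay in an intron of Col6a3 at chr1:90834896-90835045, 8883 bp downstream of the start site, with scores of 146 and 104 (percentiles 99.3 and 99.5). It was followed by peaks 27600 bp upstream of Col5a1 at chr2:27858676-27858825 (147 and 99), 16229 bp upstream of Col1a2 at chr6:4488436-4488585 (148 and 94) and in an intron of Col4a1 at chr8:11273596-11273745 (147 and 95). In each of these 4 the windows of both lists were identical. Below them followed peaks 44768 bp upstream of Col18a1 (147 and 92), in introns of Col4a2 (146 and 92) and Col7a1 (145 and 92), 14649 bp upstream of Col1a2 (145 and 88), in an intron of Col8a1 (143 and 90) and downstream of the end of Col6a3 (144 and 88). The nearest coding start site was that of another gene at 3 of these 10: Rab20 for the Col4a2 peak, Ucn2 for the Col7a1 peak and Cmss1 for the Col8a1 peak. Col1a2 and Col6a3 each had 2 of the 10. The 4 with the highest mean percentile are printed on the plus strand, as the strongest distal sites by that measure, with capitals for matches on either strand to TGACTCA (AP-1), CATTCC (TEAD), TGTGGT (RUNX) and ACAATG (SOX) and to the C/EBP and CTCF motifs.
Col6a3 intron peak: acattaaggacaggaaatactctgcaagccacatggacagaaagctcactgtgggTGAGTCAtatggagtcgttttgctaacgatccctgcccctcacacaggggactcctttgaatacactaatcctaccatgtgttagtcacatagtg
Col5a1 upstream peak: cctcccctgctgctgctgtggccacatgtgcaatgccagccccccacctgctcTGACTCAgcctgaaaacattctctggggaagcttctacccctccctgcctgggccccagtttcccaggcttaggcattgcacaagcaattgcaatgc
Col1a2 upstream peak: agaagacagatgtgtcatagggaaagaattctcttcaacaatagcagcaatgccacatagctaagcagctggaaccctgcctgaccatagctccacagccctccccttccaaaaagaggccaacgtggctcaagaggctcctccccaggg
Col4a1 intron peak: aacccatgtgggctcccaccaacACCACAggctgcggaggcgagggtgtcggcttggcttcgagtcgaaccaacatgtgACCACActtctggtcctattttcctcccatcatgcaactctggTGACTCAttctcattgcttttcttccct
The peaks of Col6a3, Col5a1 and Col4a1 each held 1 AP-1 motif, and that of Col4a1 also held 2 RUNX motifs. The Col1a2 peak held none of the 6 motifs. Over the 452 shared distal peaks, AP-1 was present in 124 (27.4%, interval 23.5% to 31.7%) against 27.3% of all 72124 shared distal peaks, TEAD in 77 (17.0%) against 15.5%, RUNX in 90 (19.9%) against 19.5%, CTCF in 45 (9.96%) against 9.14% and C/EBP in 5 (1.11%) against 1.15%. SOX was present in 28 (6.19%, 4.32% to 8.81%) against 8.61%. For all 6 motifs the background share lay inside the interval of the members, so by these letters the collagen sites were like shared distal sites at large. Single members differed: the shared distal peaks of Col6a5 held AP-1 in 7 of 12 and those of Col6a3 in 7 of 15, whereas those of Col5a2 held it in 0 of 11 and those of Col2a1 in 0 of 10. These members were picked after their values were seen.

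Accessibility along the gene bodies separated the 2 type I collagen genes from the rest of the family, and it differed between the lists. This comparison was chosen after the values were seen. In biosample 1, hotspots covered 93.8% of the 16.8 kb body of Col1a1 and 52.1% of the 36.7 kb body of Col1a2, against a median of 5.46% over all genes and 6.04% over the members. Among the 14080 protein-coding genes of 10 kb or more, Col1a1 ranked 4 and Col1a2 ranked 33. The next member was Col8a2 with 19.3%, followed by Col4a2 with 17.2% and Col3a1 with 16.8%. In biosample 2 the same bodies were covered to 5.54% and 5.03%, against a median of 1.17% over all genes, and Col8a2 (5.34%) and Col4a2 (5.17%) stood beside them. The plot of body coverage shows that both type I genes lay far to the right of the remaining members while in biosample 2 Col1a1 was the highest by a small margin and Col1a2 lay below Col8a2 and Col4a2.

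**Figure D4:**
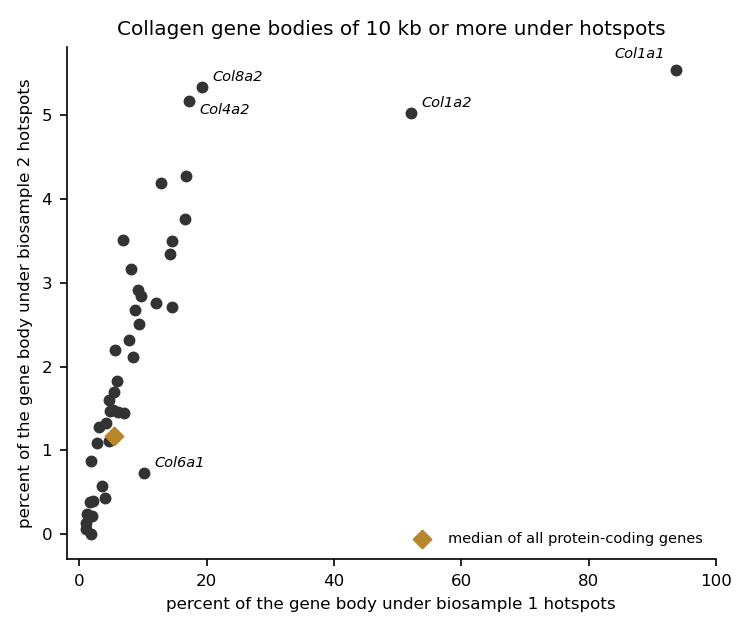
Percent of each collagen gene body of 10 kb or more under hotspots of biosample 1 (horizontal axis) and biosample 2 (vertical axis), with 1 point for each gene and a diamond at the medians of all protein-coding genes. Col1a1 lies at 93.8% and 5.54% and Col1a2 at 52.1% and 5.03%, and every other member lies at or below 19.3% in biosample 1.

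The coverage of Col1a1 was made of 9 hotspots of 527 to 3435 bp that nearly met. Its body held 33 peaks of biosample 1, of which 3 met a biosample 2 peak, and 3 peaks of biosample 2. The 50 kb on either side were covered to 26.8% in biosample 1 and 5.39% in biosample 2. At Col1a2 most of the coverage came from 1 hotspot of 14243 bp, chr6:4529638-4543880, the widest of all 247031 hotspots of biosample 1, where the next widest had 12673 bp. It covered the 3′ part of the gene, 32.4% of the body, and ran 2336 bp past the annotated end. It held 29 peaks of biosample 1 with scores of 56 to 121 and a median of 72, and none of them met a biosample 2 peak. Biosample 2 had 0 peaks and 0 hotspots inside it. The whole body of Col1a2 held 40 peaks of biosample 1, of which 6 met a biosample 2 peak, and 6 of biosample 2, most of them in its 5′ part.

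**Figure D5:**
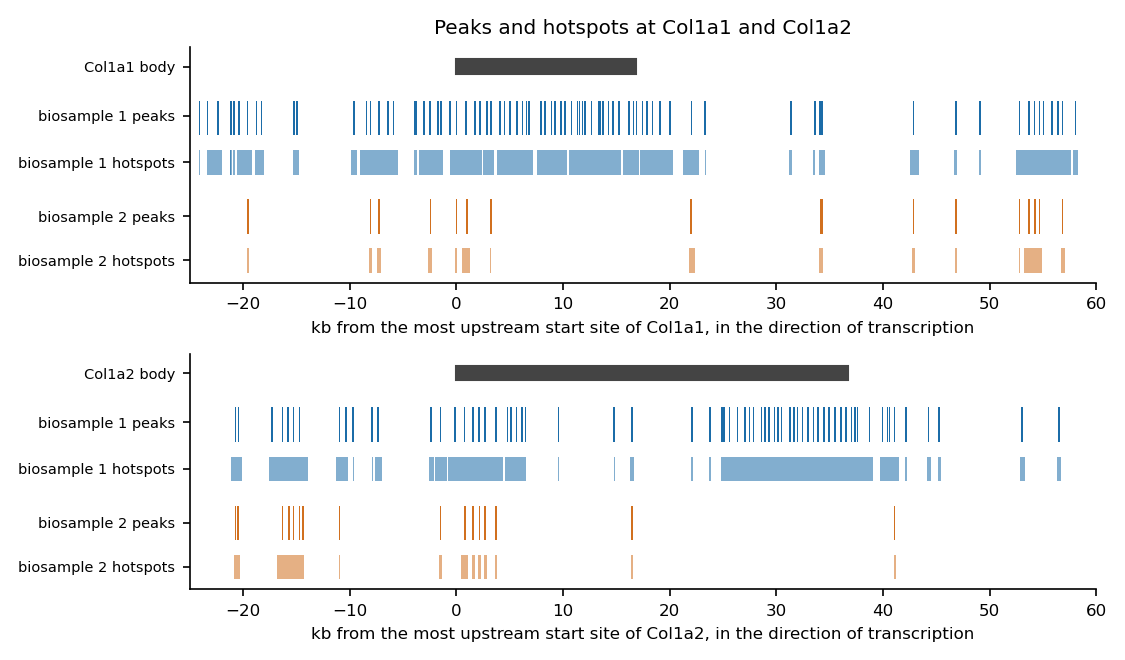
Peaks and hotspots of both lists around Col1a1 (top) and Col1a2 (bottom), by distance in kb from the most upstream start site in the direction of transcription, with the gene body as a dark bar. In biosample 1 hotspots fill 93.8% of Col1a1 and the 3′ part of Col1a2, whereas in biosample 2 the sites are few, with 3 peaks in the body of Col1a1 and 6 in that of Col1a2.

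In all, 37 genes of 10 kb or more had at least 50% of their body under biosample 1 hotspots, and these 2 were the members among them. Over the 37, the share in biosample 2 ranged from 0 to 71.0% with a median of 11.1%, and 10 of them had a lower share there than Col1a1. With hotspots at the highest −log10 q value alone, the shares in biosample 1 were 90.7% for Col1a1 and 50.6% for Col1a2. The biosample 1 list is longer throughout, with 108 Mb under hotspots against 30.5 Mb, and the part of depth in this difference was not tested.

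Of the genes that act on collagen, taken from lists of textbook members, most had a promoter peak. Among 17 genes of chain modification and folding, 14 were called in both lists. The highest were P4hb (scores 146 and 101), a subunit of prolyl 4-hydroxylase, and Colgalt1 (147 and 95), which attaches galactose to hydroxylysine, and Colgalt2 had none in either list. Among 13 genes of secretion and propeptide cleavage, 10 were called in both lists, led by Pcolce (146 and 91), an enhancer of procollagen cleavage, and Sec31a (142 and 83), a subunit of the coat of transport vesicles. Adamts3, a propeptide proteinase, and Tll2 had none. Among 9 collagen receptors, 5 were called in both lists, led by the discoidin receptors Ddr2 (139 and 89) and Ddr1 (145 and 75). Itga11, an integrin chain, and Gp6, the platelet receptor, had none. Among 12 genes of collagen breakdown, 9 were called in both lists, led by the inhibitor Timp1 (143 and 71) and the membrane proteinase Mmp14 (132 and 60), and Mmp8, a collagenase of neutrophils, had none. Against 51.8% of all genes, the share called in both lists was 82.4% (interval 59.0% to 93.8%) for modification, 76.9% (49.7% to 91.8%) for secretion, 55.6% (26.7% to 81.1%) for receptors and 75% (46.8% to 91.1%) for breakdown, and 45.5% for the collagen genes themselves. Only the interval of the modification list lay above the background. The CpG content of these promoters was not measured, and over all genes 80.2% of CpG-rich and 27.1% of CpG-poor promoters were called in both lists.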

How the data were processed

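The members, classes, gene lists and motifs were chosen with earlier results of these data known. Per the labels and the notes deposited with each library, the authors pooled the 2 libraries of a biosample before calling peaks and hotspots in mm10. Which aligner and which peak caller they ran is not given in the sources used here. Each of the deposited peak lists gives a score for each peak, the authors' own value, used here only to rank peaks within a list. The deposited hotspot lists give a −log10 q value from 1.3 to a ceiling of 100, reached by 49.4% and 42.8% of hotspots, so hotspots were described by width. No label says if the biosamples came from separate cultures.

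Genes and the 54355 start sites came from GENCODE M21, with repeated symbols on a chromosome merged. The overlap code was checked on made-up peaks and against bedtools 2.31.1. Of each class, all members were named with their call. Scores were given for all members with a peak, which goes beyond the rule of up to 4 in each class. Values were further given for the members with the most shared distal peaks, the 10 strongest such peaks and the widest promoter hotspots. Peaks inside untranslated regions were not printed as sequence beyond 30 bases. Mmp1a had no record in the gene set. Alternatives were other promoter windows, flanks, overlaps, start sites and score limits.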

Additional observations from a re-analysis of the deposited data

How the results depend on the processing

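Of 31 alternatives run over 7 values, 28 stayed within 1.5 times a count or a body share, within the Wilson interval of the share of distal peaks, or within the interval of a median from order statistics (71.1 to 91.3 for the promoter percentile, whose value was 85.2). The share of biosample 2 distal peaks that met biosample 1 was 95.5% with an overlap of at least 50% of both peaks and 100% (269 of 269) in the stronger 50% of each list. The promoter hotspots in both lists fell from 22 to 14 genes with hotspots at the highest −log10 q alone. The causes were not tested. The count of 20 genes with a promoter peak in both lists ranged from 15, without Col4a1, Col4a2, Col7a1, Col23a1 and Col11a2, in the stronger 50% of each list, to 26 within 2000 bp, where Col11a1, Col26a1, Col6a5, Col13a1, Col14a1 and Col4a6 were added. With as many of the strongest biosample 1 peaks as biosample 2 has, the same 20 genes were called. That outcome was set beforehand, as all 20 stood at percentile 77.0 or higher in biosample 1 and no other member had a biosample 2 promoter peak. With gene bodies alone, 39 members kept a shared distal peak. None of these settings was run over all protein-coding genes, so the counts have no background share beside them. The start sites of all transcripts and the body shares with hotspots at the ceiling were added after seeing the data. No paired analysis was possible because each biosample has 1 pooled list, and for the same reason no library could be left out.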
